A study of Rattus norvegicus with 6 samples.

Results

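The mitochondrial ribosomal protein genes were the rows of the count table of type protein coding whose symbol was Mrpl or Mrps followed by a number. This gave 74 of 18718 rows, 45 with an Mrpl name and 29 with an Mrps name, and 73 distinct symbols because Mrpl36 stands in 2 rows. The rule reads only names and gene type. Total RNA was sequenced from the established cell line HEI-OC1, which comes from the inner ear's organ of Corti, in 3 libraries treated with an siRNA against Hnrnpd (siHnrnpd 1 to 3; the labels give the genotype as AUF1 knock down) and 3 with a control siRNA (control 1 to 3). All 6 libraries share the cell line and the labelled growth conditions, a medium with serum and antibiotics, and no time after transfection or number of separate cultures is given in the labels. The spread behind each p-value is that among these libraries and may be technical.

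The siRNA target, listed as Hnrpd, encodes AUF1, an RNA-binding protein of AU-rich mRNAs. It had 319, 303 and 269 CPM (normalised read counts, scaled by the TMM-adjusted library size) in the control libraries and 177, 200 and 183 CPM in the siHnrnpd libraries, so the comparison tests an incomplete reduction. It was lower by a log2 change of -0.67 (SE 0.082), with an adjusted p of 0.0426 by edgeR's quasi-likelihood test. All siHnrnpd libraries lay below all controls. DESeq2 gave an adjusted p of 2.1e-10 and limma-voom 0.0445. With 1 library left out the edgeR adjusted p ran from 0.0458 to 0.319, under 0.05 only without siHnrnpd 2. The edgeR adjusted p was 0.0873 with the replicate number as a block. The libraries held 28984535 to 35842904 counts. Of 12 hair cell markers checked against the label, 8 had a row and 1 (Myo6) was above 1 CPM in control, as were 4 of 10 supporting cell and prosensory markers (Jag1, Fgfr3, Hes1 and Cdkn1b), 0 of 7 epithelial markers and 8 of 11 fibroblast and mesenchymal markers. The submitters give the organism as rat, whereas the line is usually described as murine. Which species the reads come from was not tested, and levels compared between genes carry that limit. The promoter sequences, divergent neighbours and gene overlaps given below are those of rat and carry it too.

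Mitochondria keep their own ribosome, which translates the few mRNAs of mitochondrial DNA into core subunits of the respiratory chain. Its RNAs are made in the organelle, while all of its proteins are encoded in the nucleus, made in the cytosol and imported. Many of these proteins have a bacterial counterpart, and others are found only in mitochondria. Defects of several members cause inherited respiratory chain disease, in some cases with hearing loss, and hair cells are known to depend on mitochondrial function.

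Several members could be described by sequence as well as by level. Promoter sequences of 58 of the 73 symbols were found in RefSeq (rat assembly GRCr8), and no entry was matched for Mrpl13, Mrpl15, Mrpl16, Mrpl19, Mrpl21, Mrpl35, Mrpl38, Mrpl43, Mrps12, Mrps22, Mrps24, Mrps28, Mrps34, Mrps35 or Mrps36. A feature shared by many was a divergent neighbour, that is, a protein-coding gene that starts on the other strand and runs the opposite way, at most 1000 bases upstream. This held for 17 of the 58 matched members (29.3%), for 12.2% of the genes tested and for 7.22% of all protein-coding genes with a promoter entry. In 1 case both neighbours were members: Mrpl46, of the large subunit, and Mrps11, of the small subunit, start 233 bases apart on opposite strands of chromosome 1. The whole stretch between the 2 starts is shown on the Mrpl46 strand (chr1:142117031-142117263, minus strand), because it is the only sequence that 2 members share as upstream region. The second sequence is the 250 bases upstream of Mrpl48 (chr1:164351377-164351626, minus strand), the member with the lowest log2 change. The third is the stretch between Mrpl32 and the proteasome subunit gene Psma2 (chr17:55260442-55260650, plus strand), which holds the motif associated with nuclear respiratory factor 1. Capitals mark the motifs associated with nuclear respiratory factor 1, ETS factors and YY1, on either strand.

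Mrpl46: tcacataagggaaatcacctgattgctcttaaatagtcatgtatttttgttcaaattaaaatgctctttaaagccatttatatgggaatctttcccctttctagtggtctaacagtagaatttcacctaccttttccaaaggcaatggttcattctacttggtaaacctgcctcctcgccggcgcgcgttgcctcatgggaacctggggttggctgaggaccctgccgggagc
Mrpl48: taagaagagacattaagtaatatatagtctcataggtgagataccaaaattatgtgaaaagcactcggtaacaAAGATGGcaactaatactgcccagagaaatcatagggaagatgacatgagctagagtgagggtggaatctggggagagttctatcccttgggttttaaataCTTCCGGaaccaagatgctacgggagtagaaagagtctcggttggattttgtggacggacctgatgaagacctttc
Mrpl32: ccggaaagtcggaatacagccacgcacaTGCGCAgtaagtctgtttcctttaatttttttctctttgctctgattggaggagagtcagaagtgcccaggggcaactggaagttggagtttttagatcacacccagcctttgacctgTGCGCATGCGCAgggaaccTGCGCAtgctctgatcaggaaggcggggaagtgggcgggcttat

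The 7 motifs searched were GCGCATGCGC and its partly overlapping core TGCGCA, both of the kind bound by nuclear respiratory factor 1, CCGGAAG, the kind bound by ETS factors such as GABPA, AAGATGG, the kind bound by YY1, the TATA box TATAAA, the GC box GGGCGG and the CCAAT box CCAAT. Each was searched on both strands in the 250 bases before each start. The window of Mrpl46 held none of the first 4, which are the ones in capitals. Mrpl48 held CCGGAAG, read on the other strand, and AAGATGG. The stretch before Mrpl32 held TGCGCA and, overlapping it, GCGCATGCGC. The full 250 bases before Mrpl32 also held AAGATGG, outside the stretch shown. Over the members, GCGCATGCGC lay in 4 of 60 windows (6.67%: Mrpl17, Mrpl32, Mrpl44 and Mrps18b), against 1.80% of windows of the genes tested and 0.762% of all windows. TGCGCA lay in 20% of member windows, against 11.9% and 6.14%. CCGGAAG lay in 18.3%, against 15.2% and 7.27%. AAGATGG lay in 8.33%, against 4.24% and 4.62%. The GC box GGGCGG lay in 43.3% of member windows, below the 58.6% of genes tested and above the 30.5% of all windows. TATAAA lay in 13.3%, against 6.19% and 12.9%, and CCAAT in 43.3%, against 35.7% and 34.0%. The windows differed in composition: the median share of G and C was 53.6% for members, 60.4% for genes tested and 51.2% for all windows. The motif shares were not adjusted for this. These are letter matches and no measure of binding.

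By level, the members were well expressed. By the authors' FPKM, which is scaled to gene length, the median tested member had 45.3 in control, against 7.46 over all genes tested, and 49 of the 72 tested members lay between 20 and 100 FPKM. The quartiles of the members lay at 27.5 and 79.6 FPKM, a ratio of 2.89, although the ribosome holds these proteins mostly in equal number. Over all 74 rows, the control median was 43.1 FPKM for rows with an Mrpl name and 51.4 FPKM for rows with an Mrps name.

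**Figure D1:**
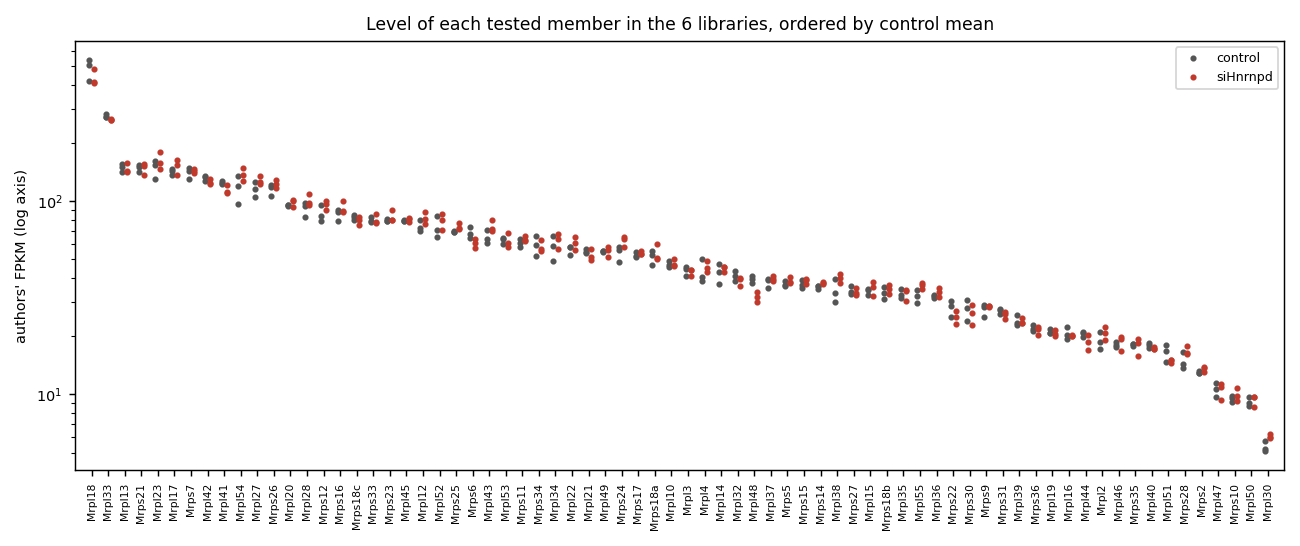
Authors' FPKM (log axis) of the 72 tested members in the 6 libraries, ordered by control mean; grey points are control and red points siHnrnpd libraries. Mrpl18 lies highest at 485 FPKM and Mrpl30 lowest at 5.34 FPKM, and the points of both groups lie close together for nearly every member.

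Mrpl18, a large subunit protein that sits near the central protuberance of the ribosome, was the highest member. It had 535, 506 and 416 FPKM in the 3 controls and 411, 483 and 408 FPKM in the 3 siHnrnpd libraries. Control 3 lay with the siHnrnpd libraries, and the groups overlapped. Its control mean was 485 ± 62.1 FPKM (SD, n = 3), 1.76 times that of the next member. The divergent neighbour of Mrpl18 is Tcp1, which encodes a subunit of the cytosolic chaperonin and had 2034 CPM in control. The counting's strand setting is not given in the sources used here, and whether reads of the neighbour entered the Mrpl18 row was not tested.

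Mrpl33, a small protein of the large subunit, was the next by FPKM at 275 ± 5.11 (SD, n = 3) but ranked 29 of 74 by CPM, where length is not taken into account. Its position therefore rests on the length the authors used. Below it, Mrpl13, Mrps21, Mrpl23 and Mrpl17 had 149 ± 7.16, 148 ± 6.48, 148 ± 16.3 and 142 ± 5.00 FPKM in control (SD, n = 3 each), and these neighbours in the order did not differ beyond their spread.

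At the low end, Mrpl30 had 5.10, 5.72 and 5.21 FPKM in control and 6.21, 5.92 and 6.0 FPKM in siHnrnpd libraries. It lay under every other tested member in the control mean, beyond the SD of its neighbour Mrpl50 (9.13 ± 0.55 FPKM, n = 3). Mrps10 (9.51 ± 0.31 FPKM) and Mrpl47 (10.6 ± 0.87 FPKM) came next, and each of these 3 overlapped its neighbour in the range of the control libraries. Mrps2, a small subunit protein with a bacterial counterpart, had 13.0 ± 0.15 FPKM and ranked 68 of 74, while by CPM it ranked 35. Mrps28 followed with 14.9 ± 1.45 FPKM.

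The paralogs Mrps18a, Mrps18b and Mrps18c are 3 forms of one bacterial protein, each of which has its own place in the mitochondrial ribosome. Mrps18c had 82.5 ± 2.86 FPKM in control, Mrps18a 51.4 ± 4.30 and Mrps18b 33.6 ± 2.43 (SD, n = 3 each), so these FPKM differed beyond the spread among libraries. In siHnrnpd they were 79.2 ± 3.89, 53.7 ± 5.63 and 35.0 ± 1.98 FPKM, in the same order. By control CPM, where length is not taken into account, Mrps18b was highest at 87.5, then Mrps18c at 78.5 and Mrps18a at 54.2. The order of the paralogs therefore rests on the length the authors used. The divergent pair differed in level too: Mrps11 had 60.7 ± 3.09 FPKM and Mrpl46 18.1 ± 0.57 FPKM in control.

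The filter on low counts left out 2 of the 74 rows. Mrpl1 had 4, 4 and 14 counts in the 3 controls and 2, 9 and 5 in the 3 siHnrnpd libraries, while a separate row described as L1-like (LOC100359687, no member) had 152, 155 and 185 counts in control and 189, 185 and 170 in siHnrnpd. The second Mrpl36 row had 0, 2 and 0 counts in control and 0, 0 and 2 in siHnrnpd, while the first had 918 to 1174. Reads of near-identical copies may be split between such rows. The row Mrps36 is a member by name only, since its protein is now known as a subunit of a dehydrogenase complex (RefSeq symbol Kgd4), and it had 22.05 ± 0.82 FPKM in control (SD, n = 3). By RefSeq GRCr8, 15 of 72 matched members overlap another protein-coding gene, among them Mrpl48 (Rab6a) and Mrps6 (Slc5a3). The overlap is between whole gene spans, introns included and on either strand. Whether reads of an overlapping gene entered a member row was not tested.

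The comparison of groups asked whether reducing Hnrnpd changes the mRNAs of the mitochondrial ribosome. None of the members passed the test, and none differed by as much as 1.5-fold within its interval. The edgeR quasi-likelihood test called 0 of 72 tested members at an adjusted p under 0.05, where it called 0.0815% of the 12268 genes tested. At an unadjusted p under 0.05 there were 3 members (4.17%), 1 higher and 2 lower, against 11.0% of all genes tested (5.84% higher and 5.20% lower). DESeq2 called 1 of the 72 members with an adjusted p (1.39%), against 1.41% of all genes with one, and limma-voom called 0. The 95% interval of the log2 change lay within 1.5-fold in either direction for all 72 tested members, each interval taken singly. Over all genes tested, 76.4% had an interval within 1.5-fold. The members also had a smaller median SE (0.078, against 0.105) and a higher median level, and genes of like level were not compared.

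**Figure D2:**
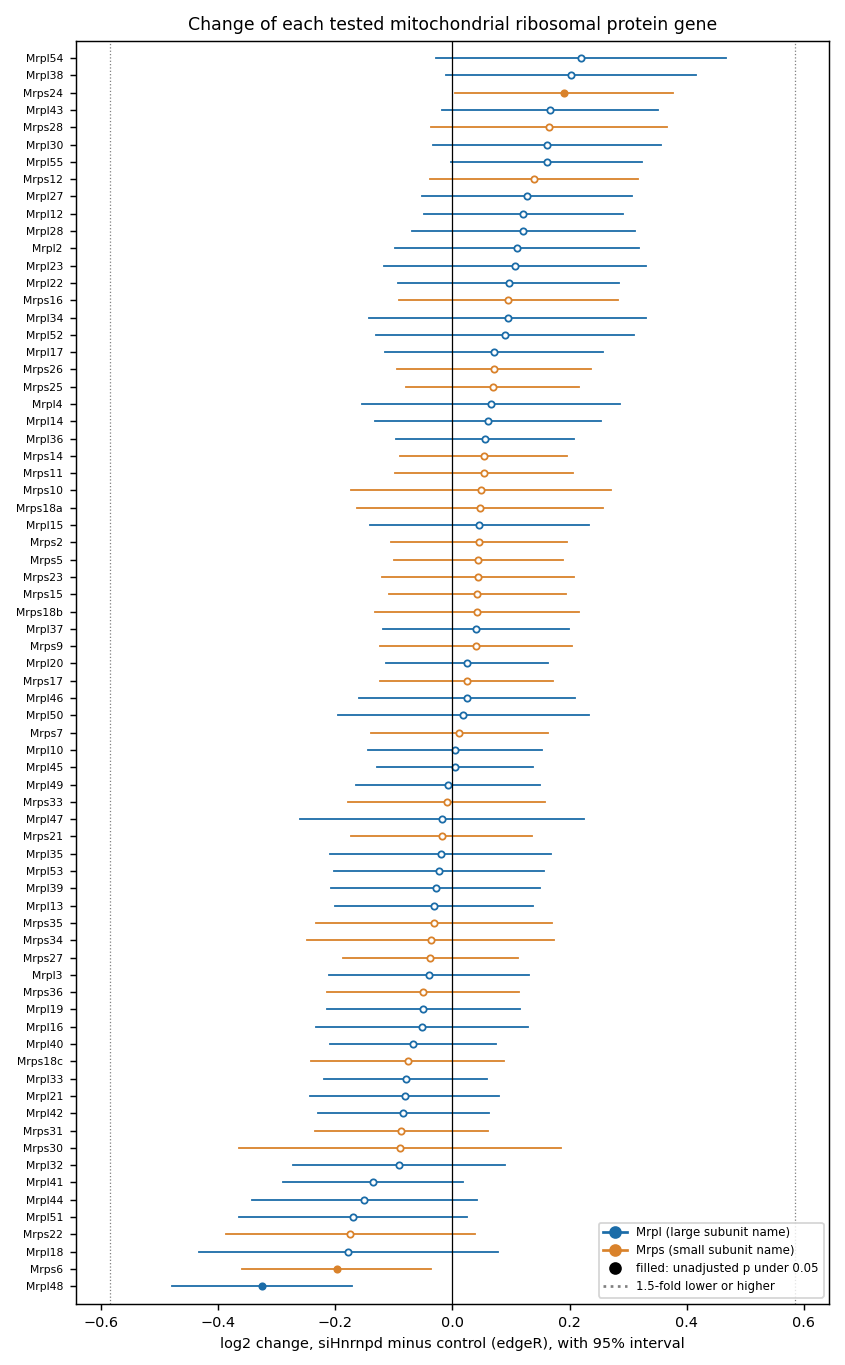
Log2 change of each tested member (point) with its 95% interval (line), ordered by change; blue marks Mrpl and orange Mrps names, and filled points have an unadjusted p under 0.05. The points run from -0.33 for Mrpl48 to 0.22 for Mrpl54, and all 72 intervals stay between the dotted lines at 1.5-fold.

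The median log2 change over the members was 0.025, against 0.0054 over all genes tested. There were 42 members above 0 and 30 below (58.3% above, against 51.7% of all genes). The median depended on single libraries: it was -0.015 without control 1 and -0.0097 without siHnrnpd 1. The groups did not overlap in 9 members (12.5%), 3 higher and 6 lower, against 17.0% of all genes tested (8.42% higher and 8.57% lower). Mrps24, Mrpl30 and Mrpl55 were the members with all siHnrnpd libraries above all controls.

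Large subunit names had a median of 0.019 over 43 tested members, with 0 called by edgeR and 1 (lower) at an unadjusted p under 0.05. Small subunit names had a median of 0.042 over 29, with 0 called, 1 with higher and 1 with lower values at that level. Divided by ancestry instead, the 44 tested members with a bacterial counterpart had a median of 0.045, with 31 above 0, and the 27 specific to mitochondria had a median of -0.023, with 11 above 0. This division was made with the values known, and the difference between the 2 classes was not tested.

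Mrpl48, a large subunit protein specific to mitochondria, had the lowest log2 change. Its values were 57.4, 62.6 and 58.7 CPM in the 3 controls and 47.7, 45.4 and 49.5 CPM in the 3 siHnrnpd libraries. All 3 siHnrnpd libraries lay below all 3 controls. This gave a log2 change of -0.33, an SE of 0.069 and a 95% interval from -0.48 to -0.17, and it did not pass by edgeR over all genes (adjusted p = 0.164). DESeq2 called it lower (log2 change -0.33, DESeq2 adjusted p = 0.0191), the member its count refers to. By the authors' FPKM it had a mean of 39.4 ± 1.47 over the controls and of 31.8 ± 1.87 over the siHnrnpd libraries (SD, n = 3 each). The overlapping gene Rab6a, a Golgi GTPase, had a log2 change of -0.0081 with an SE of 0.098.

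Mrps6, a small subunit protein with a bacterial counterpart, was the other member with lower values at an unadjusted p under 0.05. It had 52.7, 56.3 and 59.5 CPM in control and 49.3, 46.9 and 50.9 CPM in siHnrnpd libraries, without overlap. Its log2 value was -0.20 with an SE of 0.072 (edgeR adjusted p = 0.367). With 1 library left out it ran from -0.25 without control 1 to -0.15 without control 3. The unadjusted p of edgeR then ran from 0.0080 to 0.088.

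Mrps24, a small subunit protein counted as the counterpart of bacterial S3, was the member with higher values. It had 49.7, 58.1 and 58.5 CPM in control and 66.7, 59.6 and 63.6 CPM in siHnrnpd libraries. The groups did not overlap, but siHnrnpd 2 and control 3 lay close together. Its log2 value was 0.19 with an SE of 0.083 (edgeR adjusted p = 0.443), and 0.11 without control 1 (edgeR adjusted p = 0.806).

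**Figure D3:**
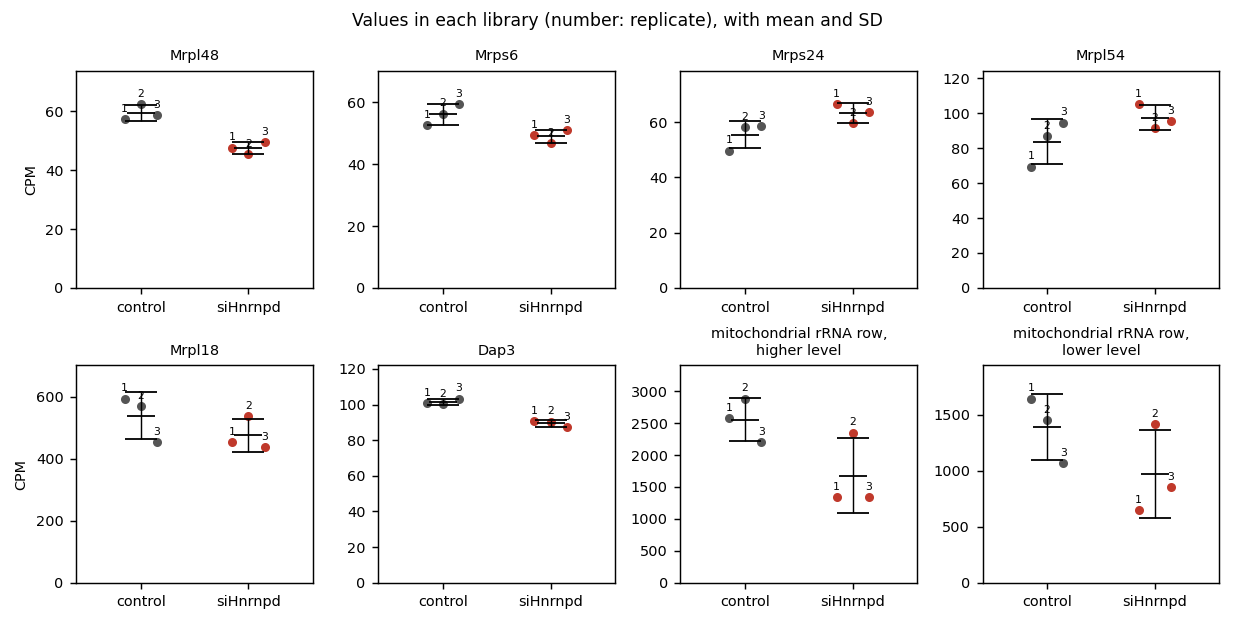
CPM in each library (points, numbered by replicate) with the group mean and SD (bars) for 5 members, for Dap3 and for the 2 mitochondrial rRNA rows; each axis starts at 0. The siHnrnpd libraries of Mrpl48, Mrps6 and Dap3 lie below all controls, while in both rRNA rows siHnrnpd 2 lies among the controls.

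The highest log2 change belonged to Mrpl54, a large subunit protein specific to mitochondria. It had 69.4, 87.0 and 94.6 CPM in control and 105, 91.5 and 95.5 CPM in siHnrnpd libraries. Control 1 was low, and the groups overlapped because control 3 lay above siHnrnpd 2. Its log2 change of 0.22 had an SE of 0.11 (edgeR adjusted p = 0.500). Mrpl38 (0.20) came next, followed by Mrps24, described above, and then by Mrpl43 (0.17), Mrps28 (0.16), Mrpl30 (0.16), Mrpl55 (0.16) and Mrps12 (0.14), with edgeR adjusted p of 0.453 to 0.549 for Mrpl38 and these 5. Without control 1, the log2 value was 0.091 for Mrpl54, 0.11 for Mrpl38 and Mrpl43, 0.10 for Mrps28, 0.096 for Mrpl55 and 0.071 for Mrps12. Mrps12 is the counterpart of the bacterial decoding centre protein S12. Mrpl55 and Mrpl30 had groups that did not overlap: Mrpl55 had 33.1, 36.3 and 38.1 CPM in control and 40.4, 39.3 and 40.5 CPM in siHnrnpd libraries.

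At the other end, Mrpl18 had a log2 value of -0.18 with an SE of 0.11, Mrps22 -0.17, Mrpl51 -0.17, Mrpl44 -0.15, Mrpl41 -0.14 and Mrpl32 -0.092, with edgeR adjusted p of 0.500 to 0.717. Mrpl18 ranged from -0.29 without control 3 to -0.11 without control 1, Mrpl51 from -0.26 to -0.11 without the same libraries, and Mrpl32 from -0.14 without control 3 to -0.047 without siHnrnpd 3. Mrpl44 had -0.085 without siHnrnpd 3. Mrpl44 holds a fold of the RNase III kind, and mutations of Mrpl44 and Mrps22 are known causes of mitochondrial disease. Mrpl41 had 103, 106 and 100.2 CPM in control and 99.98, 92.7 and 88.9 CPM in siHnrnpd libraries. Its groups did not overlap, as was also the case for Mrpl33, Mrpl40 and Mrps31, whose log2 values were -0.080, -0.067 and -0.088.

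Mrpl12, a stalk protein that also binds the mitochondrial RNA polymerase, had a log2 value of 0.12 with an SE of 0.076. Mrpl45, which holds the ribosome to the inner membrane, had 206, 208 and 201 CPM in control and 201, 211 and 204 CPM in siHnrnpd libraries, a log2 value of 0.0036 with an SE of 0.059. Mrpl45 and Mrpl12 were chosen after their values were seen.

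The members shared differences from library to library. The mean log2 level over the 72 tested members, relative to the control mean, was -0.045, 0.040 and 0.0054 in the 3 controls and 0.075, 0.010 and -0.043 in the 3 siHnrnpd libraries. The highest and the lowest of the siHnrnpd libraries thus lay on either side of the controls' centre, and the groups overlapped. Summed over all 74 rows the level was 5347, 5635 and 5440 CPM in control and 5706, 5500 and 5260 CPM in siHnrnpd libraries. SiHnrnpd 1 was the highest of the 6 libraries in 35 of 72 members (48.6%, against 22.7% of all genes tested). Control 1 was the lowest in 29 (40.3%, against 25.04%) and siHnrnpd 3 in 25 (34.7%, against 18.3%).

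**Figure D4:**
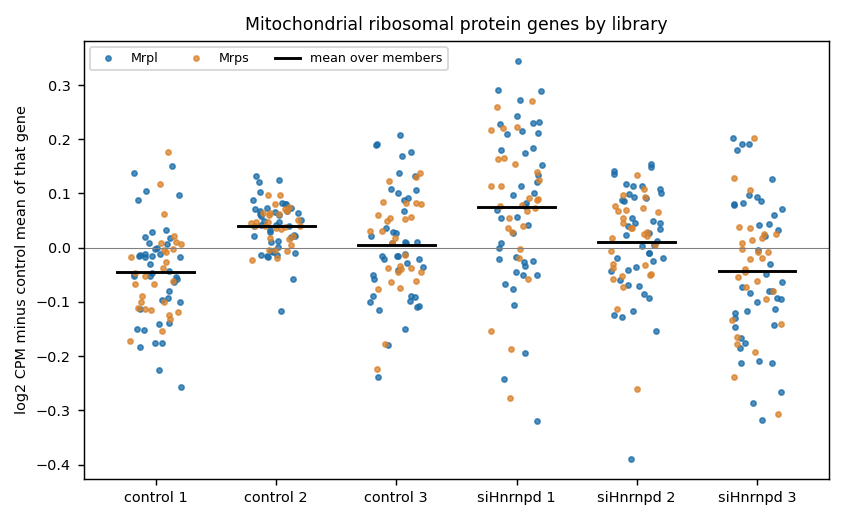
Log2 CPM of each tested member relative to that gene's control mean (points, blue Mrpl and orange Mrps) in each library, with the mean over members (black line). The means run from -0.045 in control 1 to 0.075 in siHnrnpd 1, with siHnrnpd 3 at -0.043, so the groups overlap.

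Rows with Mrpl names and rows with Mrps names, Mrps36 among the latter, shared this order. Large subunit names had means of -0.045, 0.040 and 0.0055 in control and 0.074, 0.010 and -0.043 in siHnrnpd, and small subunit names -0.045, 0.040 and 0.0053 in control and 0.076, 0.010 and -0.043 in siHnrnpd. Cytosolic ribosomal proteins, over 83 tested genes, had -0.054, 0.066 and -0.013 in control and 0.12, 0.0091 and -0.066 in siHnrnpd. Nuclear-encoded respiratory chain subunits, over 74, had -0.087, 0.027 and 0.060 in control and 0.11, -0.012 and -0.055 in siHnrnpd. What moved these lists together from library to library was not tested. The spread within control was nonetheless small: the median coefficient of variation of CPM was 5.96% over the members, against 8.39% over all genes tested. The members also had a higher median level (45.3 FPKM in control, against 7.46). Genes of like level were not compared, so the smaller spread is not shown to be particular to the members. Mrpl54 had the widest range, with its highest library 1.52 times its lowest.

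Several rows lay close to the rule without matching it. The symbols mrpl9, mrpl11 and mrpl24 begin in lower case and so were no members; their log2 values were 0.11, 0.092 and 0.0010, and with them the median was 0.025 over 75 rows. Mrp63 and Ict1, older names of 2 large subunit proteins, had 0.21 and 0.027. All siHnrnpd libraries of Mrp63 lay above all controls (unadjusted p = 0.0261, edgeR adjusted p = 0.385). The pseudogene row Mrps36 had -0.010.

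Among 5 ribosomal proteins without an Mrp name, 4 were matched and tested, with 0 called and a median of -0.073. Dap3, a GTP-binding small subunit protein first described in cell death, had 101, 100.2 and 103 CPM in control and 90.8, 90.4 and 87.3 CPM in siHnrnpd libraries. The groups did not overlap, and its log2 value was -0.18 with an SE of 0.060 (edgeR adjusted p = 0.331). Ptcd3, a pentatricopeptide repeat protein of the small subunit, had -0.17, and Gadd45gip1 and Chchd1 had 0.082 and 0.020.

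The ribosome's own RNAs were represented by 2 rows of type Mt_rRNA, which the tables do not name further. The higher of them had 2578, 2883 and 2201 CPM in control and 1344, 2351 and 1340 CPM in siHnrnpd libraries. The lower had 1646, 1455 and 1069 CPM in control and 651, 1416 and 852 CPM in siHnrnpd libraries. In both rows siHnrnpd 1 and 3 lay below all controls and siHnrnpd 2 lay among them. Their log2 values were -0.61 with an SE of 0.20 and -0.51 with an SE of 0.25 (edgeR adjusted p = 0.338 and 0.495). With 1 library left out the higher row had -0.93 to -0.47 (edgeR adjusted p of 0.0458 to 0.846). The values of -0.93 and 0.0458 came from the fit without siHnrnpd 2. The lower row had -0.89 to -0.29 (edgeR adjusted p of 0.188 to 0.880). How rRNA was depleted or mRNA selected is not given in the sources used here.

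The mitochondrially encoded genes supply the mRNAs that this ribosome translates. The 12 mitochondrially encoded genes of the list had a median of -0.085, 2 above 0, with 0 called by edgeR and 0 at an unadjusted p under 0.05. Their mean log2 level was 0.27, 0.019 and -0.29 in the 3 controls and -0.26, 0.16 and -0.16 in the 3 siHnrnpd libraries. Control 1 was thus the highest library for these genes. For the members, control 1 (-0.045) and siHnrnpd 3 (-0.043) were the lowest and lay close together. Mt-cytb, which the pattern for that list missed, had 0.060.

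Assembly factors are the enzymes and chaperones that build the ribosome. Assembly factors had 0 of 26 tested genes called by edgeR, 3 higher at an unadjusted p under 0.05 (11.5%, against 11.0% of all genes tested) and a median of 0.040. These 3 were Rcc1l (listed as Wbscr16), Ybey and Mrm1, a methyltransferase of mitochondrial rRNA, with log2 values of 0.28, 0.28 and 0.30 and edgeR adjusted p of 0.295 to 0.432. Rcc1l had 24.3, 27.2 and 27.5 CPM in control and 32.7, 29.7 and 33.7 CPM in siHnrnpd libraries, without overlap.

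Translation factors had 0 of 16 called, 1 lower at an unadjusted p under 0.05 (6.25%) and a median of -0.015. Mtif2, the initiation factor, had -0.26 (edgeR adjusted p = 0.443), Slirp -0.16 and the elongation factor Tufm 0.13. Aminoacyl-tRNA synthetases of mitochondria had 0 of 19 called, 1 higher at that level (5.26%) and a median of 0.0060. Ears2, which charges the glutamate tRNA, had 3.72, 3.53 and 3.24 CPM in control and 4.97, 5.01 and 4.41 CPM in siHnrnpd libraries, a log2 value of 0.46 (edgeR adjusted p = 0.295). Iars2 and Rars2 had -0.14 and -0.17.

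Genes of mitochondrial DNA upkeep, transcription and RNA processing had 0 of 17 called, 0 at an unadjusted p under 0.05 and a median of 0.0035. Pnpt1, a mitochondrial RNA-degrading enzyme also known as an interferon-induced gene, had 50.5, 46.8 and 33.0 CPM in control and 30.7, 43.4 and 22.1 CPM in siHnrnpd libraries, with overlap, and a log2 value of -0.43 (edgeR adjusted p = 0.511). Trmt10c and Tefm had -0.14 and 0.14. Regulators of mitochondrial biogenesis had 0 of 11 called, 0 at an unadjusted p under 0.05 and a median of 0.063. Ppargc1a and Ppargc1b, coactivators of that programme, were at or under 0.800 CPM in every library, with log2 values of 0.58 (SE 0.41) and 0.48 (SE 0.25), and Gabpb1 had -0.15. Nrf1 and Gabpa, whose motifs were searched above, had 0.086 and 0.10 and were added after their values were seen.

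**Figure D5:**
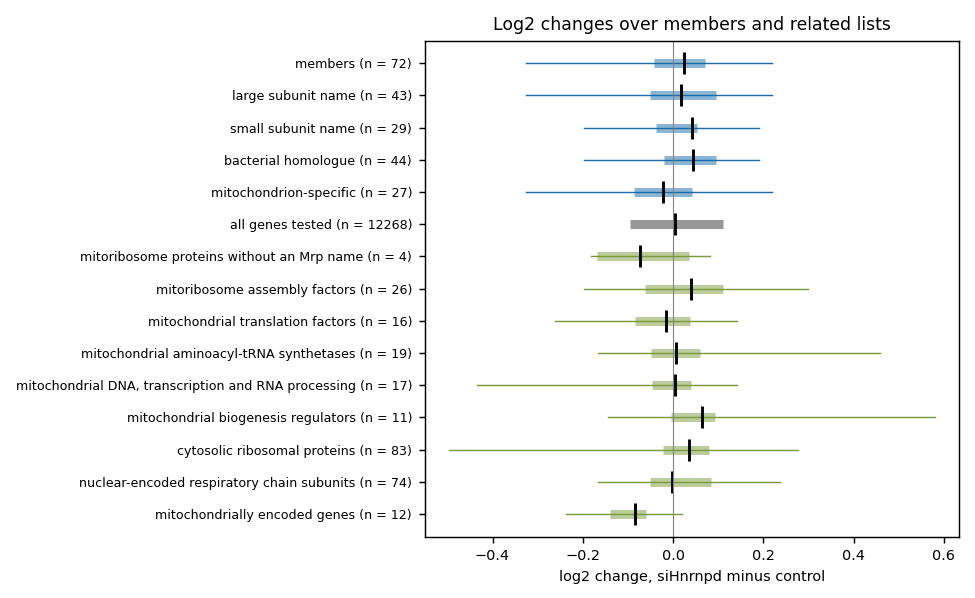
Log2 changes of the members and their subsets (blue), all genes tested (grey) and related lists (green): black ticks are medians, thick bars the range between quartiles and thin lines the full range, which is not drawn for all genes. The medians run from -0.085 for mitochondrially encoded genes to 0.063 for biogenesis regulators.

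Cytosolic ribosomal proteins had 0 of 83 called, 6 at an unadjusted p under 0.05 (7.23%, against 11.0% of all genes tested; 5 higher, 1 lower) and a median of 0.036. Rpl13, Rps2 and Rps10 had log2 values of 0.27, 0.23 and 0.25. Respiratory chain subunits from the nucleus had 0 of 74 called, 1 lower at an unadjusted p under 0.05 (1.35%; Ndufa10, log2 value -0.17) and a median of -0.0013. Ndufa4 and Ndufa11 had -0.14 and 0.20.

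The divergent neighbours of members were compared with them side by side. Mrpl46 and Mrps11, which share the stretch shown first, had log2 values of 0.024 and 0.053. Mrpl32 and Psma2 had -0.092 and -0.051, and Mrpl18 and Tcp1 had -0.18 and -0.023. Mrpl30 and Mitd1, which acts in the final separation of dividing cells, start 193 bases apart and had values of opposite sign. Mitd1 had 57.6, 62.8 and 54.3 CPM in control and 47.1, 49.5 and 27.5 CPM in siHnrnpd libraries, a log2 value of -0.49 with an SE of 0.18 (edgeR adjusted p = 0.375), against 0.16 for Mrpl30. SiHnrnpd 3 was the lowest, and the groups did not overlap. Of the 17 neighbours, 2 (Fau and Pnpla7) had no tested row, and Mrpl46 and Mrps11 are counted as neighbours of each other. Mitd1 was the 1 neighbour with an unadjusted p under 0.05 by edgeR, where 11.0% of all genes tested had such a p.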

How the data were processed

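The authors deposited raw counts for 18718 genes, and FPKM values for 18628 genes. TopHat2 and the build mRatBN7.2 are named per the submitters' processing notes, and the sources used here give no counter, strand setting or annotation. Columns were matched to samples by siRNA name and replicate number, and no pair among the 15 agreed within sampling noise.

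The main test was the quasi-likelihood test of edgeR 4.0.16 (R 4.3.3) on the deposited counts, with TMM scaling, filterByExpr and group as sole term, over 12268 genes, with Benjamini-Hochberg adjustment and calls at 0.05. The script was tested on simulated data. Alternatives used DESeq2 1.42.0, limma 3.58.1 (voom, and log2 of the FPKM deposited by the authors plus 1 or 0.1), other scalings, other filters, a replicate block and leaving out each library. List symbols not in the tables were matched through RefSeq synonyms (GRCr8). Named by rule were Hnrnpd, the 8 highest and 8 lowest log2 changes, members at an unadjusted p under 0.05, the 6 highest and 6 lowest FPKM, rows under the filter, the lettered paralogs and 3 genes with the lowest p per list. The pattern for cytosolic ribosomal proteins also matched 9 rows of S6 kinase genes, left out here. The members and lists were chosen with earlier results of these data known.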

Additional observations from a re-analysis of the deposited data

How the results depend on the processing

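Over 16 alternatives, edgeR and limma called 0 members under each, and DESeq2 called 1. The count of members at an unadjusted p under 0.05 was 3 (4.17%, against 11.0% of all genes). It was 6 with upper-quartile scaling (8.33%, against 11.5%), 5 without a filter on low counts (6.76%, against 9.07%) and 5 on log2(FPKM + 1) without a minimum (6.76%, against 8.61%). Leaving out 1 library gave 1 to 11, with 11 without control 3 (15.3%, against 15.5% of all genes). Members without overlap numbered 9, where 17.0% of all genes had none. With 1 library left out, which makes separation easier by construction, they numbered 12 to 25, where 21.1% to 35.7% of all genes had none. The medians with 1 library left out ran from -0.015 to 0.041 over all members, -0.015 to 0.037 for large and -0.010 to 0.061 for small subunit names. The 16 members named for the 8 highest and 8 lowest log2 changes kept their sign under every alternative. They were picked by their values in these same libraries, which favours a kept sign. Among the other named genes, the sign turned with 1 library left out for Gadd45gip1 (-0.037 to 0.15), Chchd1 (-0.017 to 0.085) and Mt-cytb (-0.016 to 0.11); the cause was not tested. The higher rRNA row was called without a filter on low counts (edgeR adjusted p = 0.0454). Hnrpd had a log2 change of -0.74 to -0.63 with 1 library left out and passed only without siHnrnpd 2 among those fits. It also missed the threshold with the replicate block (edgeR adjusted p = 0.0873) and on log2(FPKM + 1) with and without a minimum (limma adjusted p = 0.0508 and 0.137). Hnrpd passed by DESeq2, by limma-voom, with the other scalings and filters in edgeR and on log2(FPKM + 0.1).

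With the replicate number as a block, 0 members and 0 of all genes were called, 2 members had an unadjusted p under 0.05 and the median was 0.025. Same-numbered libraries correlated at -0.26, 0.14 and 0.10 in their deviations from the group means, and differently numbered ones at -0.33 to 0.23. With 3 libraries per group these values cannot decide whether the numbers pair the samples. The main test did not treat the numbers as pairs. The rows of Mrpl1 and the second Mrpl36 had at most 14 counts in a library, and the cause was not tested. Whether more depth or more libraries would change these or other values was not tested.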
